A study of Homo sapiens with 36 samples.

Results

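Double-stranded RNA sensing was examined as a group of 8 genes, *RIGI*, *IFIH1*, *DHX58*, *MAVS*, *TLR3*, *ZBP1*, *EIF2AK2* and *ADAR*, picked by symbol and found by their Ensembl identifiers among the 60648 genes of the count files. All 8 are protein-coding and all 8 were among the 15415 protein-coding genes that passed the filter on low counts, *ZBP1* only through its reads in the line with both proteins tagged. The libraries were poly(A) RNA-seq of HCT116, a human colorectal cancer cell line, in 4 lines, namely WT, 2 single degron lines (UHRF1-AID; DNMT1-AID) and the double line UHRF1-AID/DNMT1-AID. In the degron lines the maintenance methylation factor UHRF1, the methyltransferase DNMT1 or both carry an auxin-inducible degron tag (AID), through which the plant F-box protein OsTIR1 directs the tagged protein to degradation when auxin is given. The question put to these libraries was how gene expression moves when the cells lose either protein or both for days.

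Every line, WT included, carried OsTIR1 under a doxycycline-inducible promoter and was given the same agents. Cells spent 1 day in 2 µg/mL doxycycline with 20 µM auxinole, an OsTIR1 inhibitor, and were then held in 2 µg/mL doxycycline with 500 µM auxin (Dox/Auxin), renewed every 2 days, until collection on day 2, 6 or 8. The 12 groups of line and day held 3 libraries each, 36 in all. The study describes the libraries of a group as biological replicates, while the labels tie no library to a clone or a culture, so the p-values measure the spread between these libraries. Day and duration of Dox/Auxin cannot be told apart here, since no library was left without the agents. Any difference between days in collection, library preparation or sequencing cannot be told apart from them either.

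Double-stranded RNA is a mark of viral infection, and it also forms from transcripts of the cell itself. RIG-I (encoded by *RIGI*) and MDA5 (*IFIH1*) are cytosolic helicases that bind it and signal through MAVS on mitochondria to the kinases that switch on interferon genes, whereas LGP2 (*DHX58*) lacks the signalling domain and tunes both. TLR3 reads double-stranded RNA in endosomes, ZBP1 binds the left-handed Z form and can start necroptosis, PKR (*EIF2AK2*) halts translation, and ADAR1 (*ADAR*) edits adenosines in duplexes so that the cell's own RNA is sensed less. Several of these genes are themselves induced by interferon.

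Total reads per library ran from 21074536 to 37175136, with a median of 25031562.5, and levels are given as CPM (counts scaled to a fixed library total) after TMM, which corrects for composition. The 8 epithelial markers summed to 3390 to 10800 CPM per library, against 10.3 to 38.2 for 8 leukocyte markers and 3.41 to 85.9 for 8 stromal and endothelial markers. *PTPRC*, *MS4A1* and *LYZ* of the leukocyte list and *COL1A2*, *LUM* and *CDH5* had no read in WT on day 2. In UHRF1-AID and in UHRF1-AID/DNMT1-AID on days 6 and 8, and in DNMT1-AID on day 6, every marker of these lists had reads. The part of these markers in the results below was not tested. *DNMT1* mRNA ran from 9.12 to 19.2 CPM in both lines with a tagged DNMT1 on day 2 against 47.8 to 60.5 in WT, and from 32.6 to 70.1 against 191 to 210 on day 8; the tag acts on the protein, which these libraries do not measure. In bulk RNA, fewer cells that express a gene and less of its RNA per cell cannot be told apart.

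The genes lie on 6 chromosomes of GRCh38: *RIGI* at chr9:32455302-32526208, *IFIH1* at chr2:162267074-162318684, *DHX58* at chr17:42101404-42112714, *MAVS* at chr20:3846799-3876123, *TLR3* at chr4:186068911-186088073, *ZBP1* at chr20:57603846-57620576, *EIF2AK2* at chr2:37099210-37157522 and *ADAR* at chr1:154581695-154628013. *MAVS* and *TLR3* are on the plus strand and the other 6 on the minus strand. Over 4471 bases the exons of *RIGI* are shared with another protein-coding gene model on the same strand, ENSG00000288684, whose reads were 0.971 to 1.39 times those of *RIGI* (median 1.02), so that its counts may be split between both. *EIF2AK2* shares 436 exonic bases with genes on the other strand, *GPATCH11* and a pseudogene, and the counting is not stated to use strand.

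RefSeq promoters (GRCh38.p14, from 250 bases before to 50 after a start site) were at hand for 6 of the 8 genes, not for *DHX58* and *ZBP1*. They were searched on both strands for the core of the interferon-stimulated response element, a pair of GAAA runs with 2 bases between them, and for TTCNNNGAA, the gamma-activated site, and neither pattern overlapped the other in these windows. Of all 35116 promoters of this length, 3.57% held the first and 7.66% the second. *IFIH1*, *TLR3* and *EIF2AK2* held the paired GAAA, *TLR3* alone among the 6 held TTCNNNGAA, and *RIGI*, *MAVS* and *ADAR* held neither in these windows. A match is a run of letters and not a site in use. The windows of the genes with a match, and of *RIGI* and *MAVS*, whose mRNAs are contrasted below, are given 5′ to 3′ on the gene's own strand with both patterns in capitals (*IFIH1*, chr2:162318635-162318934; *TLR3*, chr4:186068906-186069205; *EIF2AK2*, chr2:37156931-37157230; *RIGI*, chr9:32526147-32526446; *MAVS*, chr20:3846584-3846883).
IFIH1: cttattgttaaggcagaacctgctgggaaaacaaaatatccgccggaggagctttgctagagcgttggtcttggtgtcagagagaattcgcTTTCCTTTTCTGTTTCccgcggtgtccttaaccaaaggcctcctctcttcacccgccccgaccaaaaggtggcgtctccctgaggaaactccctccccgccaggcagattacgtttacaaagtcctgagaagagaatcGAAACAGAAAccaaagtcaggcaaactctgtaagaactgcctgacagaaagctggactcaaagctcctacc
TLR3: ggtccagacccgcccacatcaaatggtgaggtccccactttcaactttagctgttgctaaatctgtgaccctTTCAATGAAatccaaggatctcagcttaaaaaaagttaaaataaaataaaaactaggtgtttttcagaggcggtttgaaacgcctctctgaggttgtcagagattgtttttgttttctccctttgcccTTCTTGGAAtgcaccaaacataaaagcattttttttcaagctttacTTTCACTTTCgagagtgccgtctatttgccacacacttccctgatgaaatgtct
EIF2AK2: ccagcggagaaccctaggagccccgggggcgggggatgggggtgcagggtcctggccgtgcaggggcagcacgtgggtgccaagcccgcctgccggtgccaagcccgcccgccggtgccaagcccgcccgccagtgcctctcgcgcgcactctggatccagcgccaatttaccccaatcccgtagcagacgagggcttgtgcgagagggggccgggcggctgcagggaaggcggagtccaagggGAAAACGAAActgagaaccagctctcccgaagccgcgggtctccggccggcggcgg
RIGI: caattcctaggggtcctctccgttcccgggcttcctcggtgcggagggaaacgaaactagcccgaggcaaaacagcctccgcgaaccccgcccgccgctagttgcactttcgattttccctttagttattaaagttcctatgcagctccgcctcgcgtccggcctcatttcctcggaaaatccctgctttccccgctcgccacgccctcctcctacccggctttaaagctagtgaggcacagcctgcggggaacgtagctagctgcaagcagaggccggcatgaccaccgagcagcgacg
MAVS: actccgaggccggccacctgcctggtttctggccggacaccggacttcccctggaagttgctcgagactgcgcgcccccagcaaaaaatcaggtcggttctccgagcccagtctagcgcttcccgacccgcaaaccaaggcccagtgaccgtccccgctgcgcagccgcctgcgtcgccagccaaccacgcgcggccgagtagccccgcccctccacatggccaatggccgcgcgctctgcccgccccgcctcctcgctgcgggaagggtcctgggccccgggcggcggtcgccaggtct
In *IFIH1* the paired GAAA matches began 159, 153 and 21 bases before the start, the first and second overlapping on the opposite strand. In *TLR3* the match began 4 bases and in *EIF2AK2* 6 bases before the start, so both ran across it, and the TTCNNNGAA matches of *TLR3* began 178 and 50 bases before. CpG dinucleotides numbered 34 in *MAVS*, 30 in *EIF2AK2*, 27 in *RIGI*, 12 in *IFIH1* and 5 in *TLR3*, against a median of 14 over all promoters.

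Per kilobase of exon, *ADAR* was the most abundant of the 8 mRNAs in every group and *ZBP1* the least. The length is that of all annotated exons of a gene merged, 12242 bases for *ADAR* and 5225 for *IFIH1*, and the order depends on that choice. In WT on day 2 *ADAR* stood at 15.8 CPM per kilobase, followed by *EIF2AK2* at 4.62, *MAVS* at 3.96, *IFIH1* at 3.33, *RIGI* at 2.85, *TLR3* at 0.919 and *DHX58* at 0.342, with no read of *ZBP1*. In UHRF1-AID/DNMT1-AID on day 8 *ADAR* was at 28.8, *IFIH1* at 26.2, *DHX58* at 17.9 and *EIF2AK2* also at 17.9 CPM per kilobase, above *RIGI* at 13.5, *MAVS* at 6.47, *TLR3* at 2.25 and *ZBP1* at 0.527. *IFIH1* had thus come close to *ADAR* per kilobase in that group, though not in CPM (137 against 352). The log2 ratio of *IFIH1* to *ADAR* per length, in which scaling between libraries drops out, was -1.70 ± 0.119 in WT and -0.15 ± 0.161 in UHRF1-AID/DNMT1-AID on day 8 (SD, n = 3). The same ratio in UHRF1-AID/DNMT1-AID on day 8 was -3.70 ± 0.26 for *TLR3*, which stayed further below. For *RIGI* it was -1.09 ± 0.0376 as counted. The overlapping ENSG00000288684 had 0.971, 0.994 and 1.01 times the reads of *RIGI* in those libraries. If the counts are split between both, the place of *RIGI* per kilobase is not settled.

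**Figure D1:**
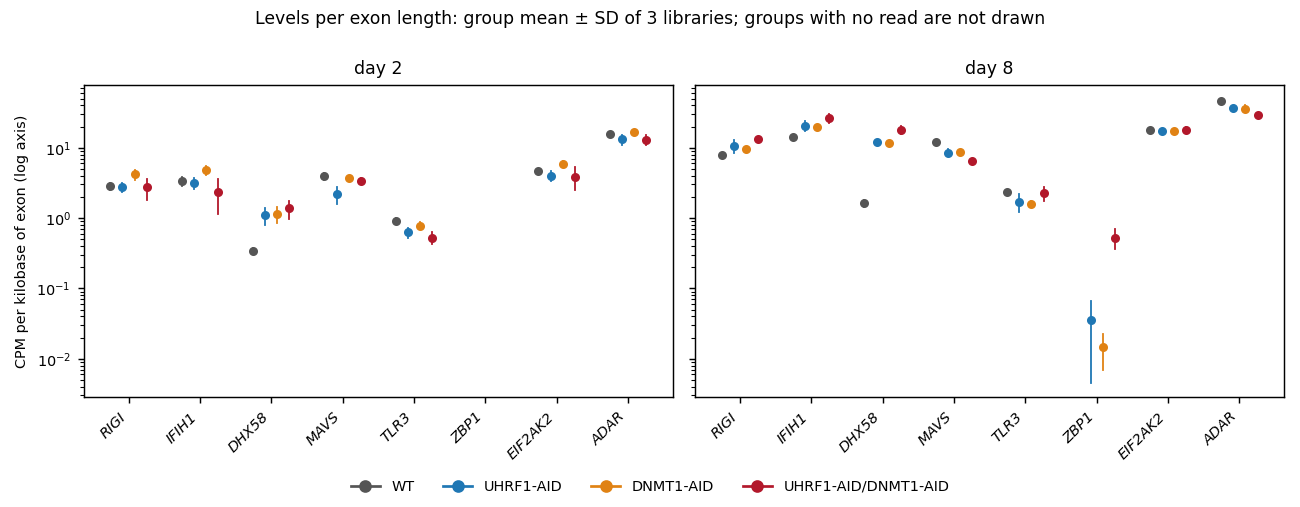
Mean level in CPM per kilobase of exon (log axis) of the 8 genes on day 2 and day 8, with the SD of 3 libraries as a line and 1 colour per line; groups with no read are not drawn. *DHX58* sits at 1.63 in WT and 17.9 in UHRF1-AID/DNMT1-AID on day 8, while *EIF2AK2* sits at 17.7 and 17.9.

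Against WT of the same day, *DHX58* was higher in every degron line on every day, *ZBP1* was read only in degron lines from day 6 on, and *RIGI* and *IFIH1* were higher above all in UHRF1-AID/DNMT1-AID on days 6 and 8. *MAVS* and *ADAR* were lower in all 3 lines on day 8, *TLR3* was lower in both single lines on day 8, and *EIF2AK2* was called in none of the 9 comparisons. Genes were called at an adjusted p under 0.05 in edgeR's quasi-likelihood test, adjusted by Benjamini-Hochberg over all genes tested. On day 2, 1 of the 8 was called up and 3 down in UHRF1-AID (of all genes, 12.1% were up and 14.4% down), 1 up and 0 down in DNMT1-AID (2.67% and 0.714%), and 1 up and 2 down in UHRF1-AID/DNMT1-AID (16.3% and 11.5%). The gene called up was *DHX58* in each line.

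On day 6, 1 member was up and 0 down in UHRF1-AID (14.3% and 10.5% of all genes) and likewise in DNMT1-AID (8.84% and 4.35%), again *DHX58*, and 4 were up and 1 down in UHRF1-AID/DNMT1-AID (19% and 21.9%). On day 8, 4 were up and 3 down in UHRF1-AID (24.2% and 21%), 2 up and 3 down in DNMT1-AID (25.1% and 22.4%), and 4 up and 2 down in UHRF1-AID/DNMT1-AID (35.7% and 32.8%). Where 4 were up, 1 of them was *ZBP1*, whose direction against a group with no read is given by its passing the filter. Over the 7 genes without *ZBP1* the median log2 fold change ran from -0.25 to 0.36 over the 9 comparisons. In UHRF1-AID/DNMT1-AID on day 8 it was 0.01, beside 0.03 over all genes tested, with 3 of those 7 genes called up and 2 down.

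With a limit of 2-fold added to the call, only *DHX58* and *ZBP1* were left against WT, and no lower member. On day 2 that was 1 of the 8 in each line, where the genes up and down past the limit were 4.04% and 3.31% of all (UHRF1-AID), 0.908% and 0.104% (DNMT1-AID), or 6.51% and 0.999% (UHRF1-AID/DNMT1-AID). On day 6 UHRF1-AID kept 1 (6.72% and 0.675%), DNMT1-AID kept 1 (3.93% and 0.493%) and UHRF1-AID/DNMT1-AID kept 2 (10.3% and 1.69%). On day 8 UHRF1-AID kept 2 (9.72% and 1.57%), DNMT1-AID kept 1 (7.32% and 2%) and UHRF1-AID/DNMT1-AID kept 2 (17% and 7.65%).

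**Figure D2:**
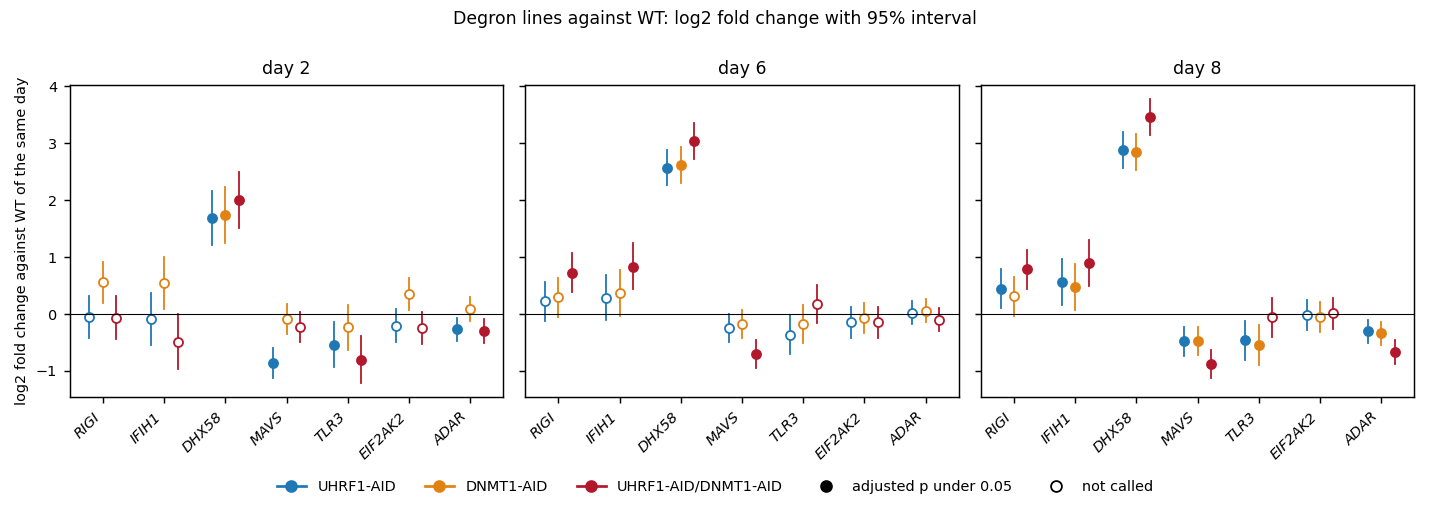
Log2 fold change of 7 genes in each degron line against WT of the same day (points) with its 95% interval (lines); filled points passed an adjusted p under 0.05, and *ZBP1* is left out because WT had no read. *DHX58* lies between 1.69 and 3.46 in all 9 comparisons, and *EIF2AK2* has no filled point.

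**Figure D3:**
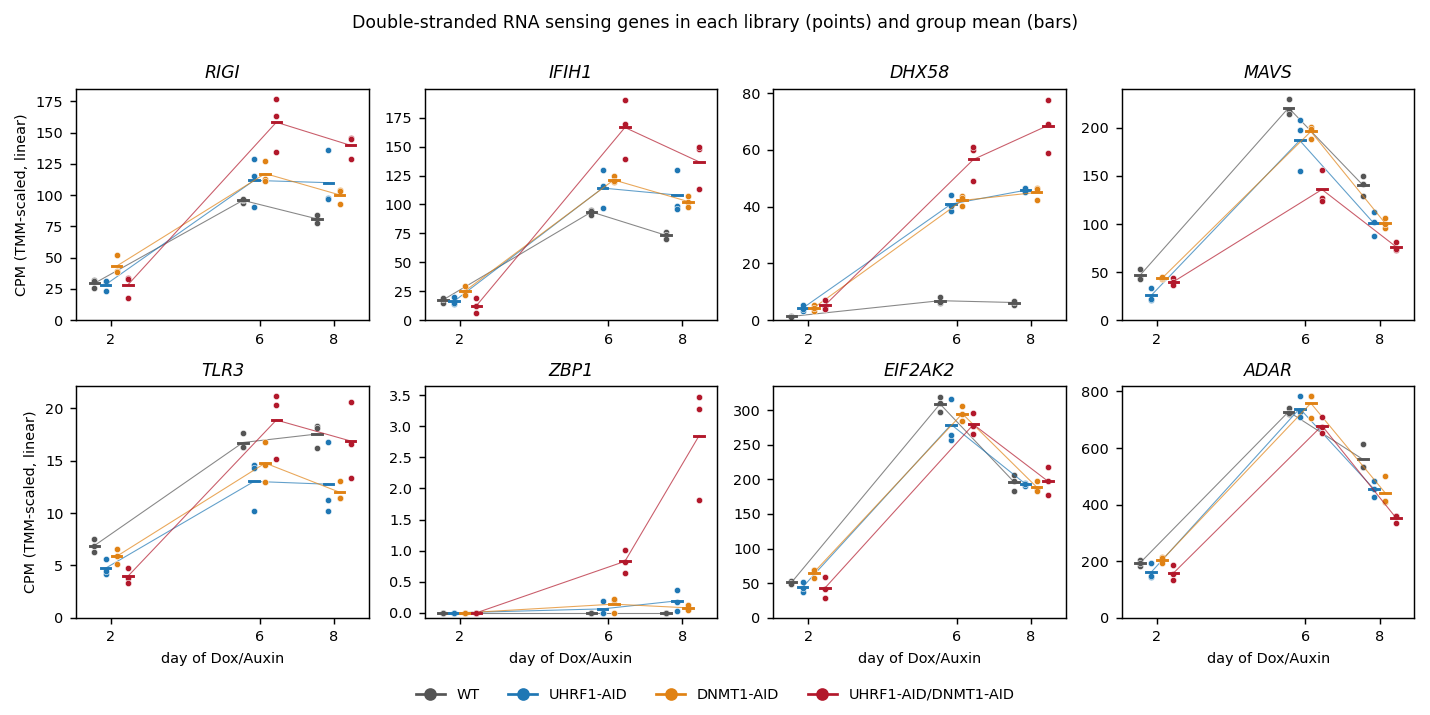
CPM of each gene in each library (points) with the group mean (bars) by day of Dox/Auxin and line; each panel has its own linear axis from 0. *DHX58* separates every degron group from WT of the same day, and *ZBP1* leaves 0 from day 6 in degron lines.

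*DHX58*, the regulatory helicase LGP2, gave the largest differences among genes with reads in WT. On day 2 the WT libraries had 1.46, 1.22 and 1.24 CPM, those of UHRF1-AID 3.18, 3.95 and 5.48, those of DNMT1-AID 5.40, 3.28 and 4.38 and those of UHRF1-AID/DNMT1-AID 6.999, 4.61 and 4.09. On day 8 WT had 5.45, 6.34 and 6.85 CPM, UHRF1-AID 45.9, 46.5 and 45.1, DNMT1-AID 42.2, 46.7 and 46.2, and UHRF1-AID/DNMT1-AID 69.2, 77.7 and 58.9. No degron library overlapped WT of its day. Over the 9 comparisons 15.7% to 36.1% of all genes were higher without overlap. The log2 fold changes were 1.69 ± 0.236 (SE), 1.73 ± 0.244 and 2.00 ± 0.238 on day 2, in that order of lines, and the largest adjusted p of the 9, 3.16e-05, was in DNMT1-AID on day 2.

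On day 6 *DHX58* was at 5.86, 6.49 and 8.21 CPM in WT and at 60.1, 60.9 and 49.0 in UHRF1-AID/DNMT1-AID, with the single lines between at 38.3 to 44.3. The log2 fold changes against WT were 2.57 ± 0.153, 2.62 ± 0.153 and 3.04 ± 0.154 on day 6 and 2.88 ± 0.156, 2.85 ± 0.156 and 3.46 ± 0.157 on day 8, again in that order of lines. The last of these is an 11-fold difference. UHRF1-AID/DNMT1-AID exceeded UHRF1-AID by 0.58 ± 0.135 (adjusted p 0.000722) and DNMT1-AID by 0.61 ± 0.135 (adjusted p 0.000453) on day 8. Both single lines were not told apart on that day: the difference was 0.03 on the log2 scale with a 95% interval from -0.25 to 0.30. All 9 calls against WT held under every alternative setting and with any 1 library left out.

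*RIGI* and *IFIH1*, the signalling receptors RIG-I and MDA5, rose to a lesser degree. *RIGI* was at 94.1, 96.1 and 97.3 CPM in WT and 177, 163 and 135 in UHRF1-AID/DNMT1-AID on day 6, and at 81.2, 84.1 and 77.7 against 145, 145 and 129 on day 8. *IFIH1* was at 95.3, 94.3 and 90.9 in WT and 191, 169 and 139.7 in UHRF1-AID/DNMT1-AID on day 6, and at 75.9, 74.0 and 70.3 against 147.5, 149 and 113.5 on day 8. In each of these 4 contrasts the lowest degron library was above the highest WT library, as it was for 25.4% of all genes on day 6 and 36.1% on day 8. The log2 fold changes were 0.72 ± 0.167 (adjusted p 0.000952) and 0.79 ± 0.169 (0.000162) for *RIGI* and 0.83 ± 0.196 (0.00123) and 0.90 ± 0.198 (0.00025) for *IFIH1*, and these 4 calls held under every alternative except the 2-fold limit.

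In the single lines both receptors were nearer to WT. On day 6 *RIGI* had 115, 129 and 90.7 CPM in the UHRF1-AID libraries and 127, 113 and 112 in those of DNMT1-AID, and *IFIH1* had 116, 129 and 97.0 and then 119, 124.5 and 119.9, with no call (*RIGI* 0.22 ± 0.167 and 0.29 ± 0.167, *IFIH1* 0.29 ± 0.195 and 0.37 ± 0.196). Of these only the UHRF1-AID libraries of *RIGI* overlapped WT (of all genes, 22.7% were higher without overlap in UHRF1-AID and 23.6% in DNMT1-AID). Fitted with WT alone, DNMT1-AID was called higher on day 6 in *RIGI* (0.28, adjusted p 0.000404) and *IFIH1* (0.37, 6.89e-06). On day 8 *RIGI* was at 97.3, 135.9 and 96.6 CPM in UHRF1-AID and 104, 103 and 92.9 in DNMT1-AID, and *IFIH1* at 98.8, 129.7 and 95.9 and at 108, 102 and 97.4. UHRF1-AID replicate 2 stood above the other libraries of its group in both genes. The calls were 0.44 ± 0.168 (adjusted p 0.0332) for *RIGI* and 0.56 ± 0.197 (0.0223) for *IFIH1* in UHRF1-AID and 0.48 ± 0.197 (0.0456) for *IFIH1* in DNMT1-AID, while *RIGI* in DNMT1-AID, at 0.31 ± 0.168, was not called (adjusted p 0.134). This last value was called with a correction for GC content and length (0.57, adjusted p 0.00503) and when fitted with WT alone (0.30, 0.00331).

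These 3 calls were near the threshold. Each could be lost by leaving out 1 library, which also leaves fewer libraries for the test, or by a change of scaling. Without UHRF1-AID replicate 2 the *RIGI* value was 0.26 (adjusted p 0.244), and it also lost its call without WT replicate 1 (0.44), 2 (0.47) or 3 (0.41). For *IFIH1* in UHRF1-AID the call was lost without that same library (0.41) and without WT replicate 2 (0.56) or 3 (0.53). For *IFIH1* in DNMT1-AID it was lost without WT replicate 1 (0.51), 2 (0.49) or 3 (0.45) and without DNMT1-AID replicate 1 (0.46), 2 (0.49) or 3 (0.52), in DESeq2 (0.49, adjusted p 0.059), with no filter (0.48, 0.0604) and with all genes with a symbol (0.49, 0.0511). With library size only, all 3 were lost, at 0.36, 0.48 and 0.30.

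On day 2 the receptors showed no such rise. For *RIGI* the WT libraries were at 25.6, 31.8 and 30.9 CPM, those of UHRF1-AID at 23.3, 30.5 and 31.2, those of DNMT1-AID at 51.8, 39.5 and 38.4 and those of UHRF1-AID/DNMT1-AID at 34.1, 33.0 and 17.4. For *IFIH1* the same groups in that order were at 14.7, 18.1 and 19.4 CPM, at 14.0, 15.2 and 19.7, at 29.5, 24.3 and 22.1, and at 18.9, 12.4 and 5.89. The 3 DNMT1-AID libraries were above all WT libraries in both genes, as for 15.7% of all genes, without a call (0.56 ± 0.179, adjusted p 0.0824, and 0.54 ± 0.221, adjusted p 0.18), and DESeq2 called *RIGI* there (0.55, adjusted p 0.0303). Fitted with WT alone, DNMT1-AID was called higher in *RIGI* (0.53), *IFIH1* (0.52) and, on the same day, *EIF2AK2* (0.33). UHRF1-AID/DNMT1-AID replicate 3 was the lowest of the 36 libraries in both genes. UHRF1-AID/DNMT1-AID was below DNMT1-AID on day 2 by -0.62 ± 0.181 in *RIGI* (adjusted p 0.0245) and -1.03 ± 0.23 in *IFIH1* (0.00352), a difference of the other sign from that of day 8, when *RIGI* was higher by 0.48 ± 0.167 (0.0204).

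*MAVS*, the mitochondrial adaptor both receptors need, was lower in degron lines. On day 8 the WT libraries were at 129, 150.4 and 142 CPM, those of UHRF1-AID at 112, 87.8 and 102, those of DNMT1-AID at 106, 96.4 and 99.98 and those of UHRF1-AID/DNMT1-AID at 81.0, 73.2 and 74.2. All 9 degron libraries were below all WT libraries, as were 26.1% (UHRF1-AID), 27.6% (DNMT1-AID) and 33.7% (UHRF1-AID/DNMT1-AID) of all genes. The 3 of UHRF1-AID/DNMT1-AID were below the other 6, as were 22.9% of all genes against UHRF1-AID and 24.5% against DNMT1-AID. The log2 fold changes against WT were -0.48 ± 0.122 (adjusted p 0.00164), -0.48 ± 0.122 (0.00167) and -0.88 ± 0.123 (1.52e-07). UHRF1-AID/DNMT1-AID was below UHRF1-AID by -0.40 ± 0.123 (0.0083) and below DNMT1-AID by -0.41 ± 0.123 (0.00747).

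The drop in *MAVS* was seen earlier in some lines. On day 6 UHRF1-AID/DNMT1-AID was at 127.5, 124 and 157 CPM against 218, 215 and 230.2 in WT (-0.70 ± 0.121, adjusted p 2.1e-05). UHRF1-AID at 208, 155 and 198 and DNMT1-AID at 201, 199 and 188 were below all WT libraries, as were 21.3% and 19.3% of all genes, without a call (-0.24 ± 0.121 and -0.17 ± 0.121). The former was called with a correction for GC content and length (-0.37) and the latter when fitted with WT alone (-0.18). On day 2 the low line was UHRF1-AID at 20.8, 22.4 and 33.7 CPM, against 53.0, 44.1 and 42.8 in WT (-0.86 ± 0.13, adjusted p 4.95e-06), with DNMT1-AID at 43.2 to 44.6 and UHRF1-AID/DNMT1-AID at 36.4 to 43.8 (-0.22 ± 0.129, adjusted p 0.198). This last was called lower with library size only (-0.36, adjusted p 0.0368) and when fitted with WT alone (-0.24, 0.0387). On that day UHRF1-AID/DNMT1-AID was above UHRF1-AID (0.64 ± 0.131, adjusted p 0.000607), a call lost when only those groups were fitted (0.59, adjusted p 0.0667). The 5 calls against WT held under every alternative except the 2-fold limit.

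*TLR3*, the endosomal receptor, was scarce throughout. On day 2 the WT libraries were at 6.82, 7.54 and 6.32 CPM, those of UHRF1-AID at 4.14, 4.46 and 5.599, those of DNMT1-AID at 5.92, 5.16 and 6.53 and those of UHRF1-AID/DNMT1-AID at 3.84, 4.74 and 3.29. On day 8 the WT libraries were at 18.3, 18.1 and 16.3 CPM, those of UHRF1-AID at 10.2, 16.8 and 11.3, those of DNMT1-AID at 13.1, 11.5 and 11.5 and those of UHRF1-AID/DNMT1-AID at 20.6, 16.6 and 13.4. The low groups were thus UHRF1-AID and UHRF1-AID/DNMT1-AID on day 2 and both single lines on day 8, where 1 UHRF1-AID library reached into the range of WT.

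The called log2 fold changes of *TLR3* were -0.54 ± 0.193 (UHRF1-AID, adjusted p 0.0357) and -0.80 ± 0.204 (UHRF1-AID/DNMT1-AID, 0.00339) on day 2. On day 8 they were -0.46 ± 0.168 (UHRF1-AID, 0.0243) and -0.54 ± 0.169 (DNMT1-AID, 0.00815). On day 6 no line was called, with WT at 17.6, 16.3 and 16.3 CPM, UHRF1-AID at 14.6, 14.3 and 10.2, DNMT1-AID at 16.8, 12.9 and 14.6, and UHRF1-AID/DNMT1-AID at 21.2, 20.3 and 15.1. Both calls of day 8 were lost with a correction for GC content and length (-0.32 and -0.31), under which UHRF1-AID/DNMT1-AID turned from -0.06 ± 0.167 to 0.34 (adjusted p 0.0454). The call of UHRF1-AID on day 2 was lost without WT replicate 1 (-0.55) or 2 (-0.47) and without UHRF1-AID replicate 1 (-0.45) or 2 (-0.50), and also with library size only (-0.52, adjusted p 0.0511) and when fitted with WT alone (-0.53, 0.0667). The call of UHRF1-AID on day 8 was lost without WT replicate 1 (-0.43) or 2 (-0.44) and without UHRF1-AID replicate 1 (-0.32) or 3 (-0.38).

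*ZBP1*, the sensor of Z-form nucleic acids, had no read in any WT library and none in any line on day 2. With 3 single-line libraries of day 6 added, 21 of the 36 libraries had no read. On day 6 UHRF1-AID/DNMT1-AID had 31, 27 and 15 reads, UHRF1-AID 0, 6 and 0, and DNMT1-AID 6, 5 and 0. On day 8 UHRF1-AID/DNMT1-AID had 68, 78 and 45 reads, UHRF1-AID 5, 10 and 1, and DNMT1-AID 2, 3 and 1. The line with both proteins tagged was thus above both single lines in every library on both days, though at 3.47, 3.27 and 1.81 CPM on day 8 its level stayed low. Of all genes, 12.2% (day 6) and 22.1% (day 8) were higher without overlap against UHRF1-AID, and 17.8% and 23.7% against DNMT1-AID.

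The level that 3 reads over the WT group would give was 0.0385 CPM on day 6 and 0.0407 on day 8. The mean of *ZBP1* in UHRF1-AID/DNMT1-AID was 21.5 times that level on day 6 (0.827 ± 0.182 CPM) and 70.1 times on day 8 (2.85 ± 0.905, SD, n = 3). On day 8 the same ratio was 4.72 in UHRF1-AID and 1.97 in DNMT1-AID, from 16 and 6 reads. These ratios leave out the counting error of the degron reads, so with so few reads they set no lower limit. Since *ZBP1* was tested only because of its reads in UHRF1-AID/DNMT1-AID, no p is given for it, and its calls are part of the counts of higher members without standing as support.

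*EIF2AK2*, which encodes the kinase PKR, did not part from WT in any call. On day 8 the WT libraries were at 184, 206 and 198 CPM, those of UHRF1-AID at 195.5, 191 and 194, those of DNMT1-AID at 186, 184 and 197 and those of UHRF1-AID/DNMT1-AID at 218, 197 and 178, so that all 4 groups overlapped. The log2 fold change of UHRF1-AID/DNMT1-AID was 0.01, with a 95% interval from -0.26 to 0.28 (adjusted p 0.938), and over all 9 comparisons the intervals lay between -0.53 and 0.64. With the correction for GC content and length the value of UHRF1-AID/DNMT1-AID on day 8 was 0.43 and was called (adjusted p 0.00165). On day 6 WT had 319.7, 297 and 310.5 CPM, UHRF1-AID 316, 257 and 264, DNMT1-AID 306, 285 and 294, and UHRF1-AID/DNMT1-AID 296.5, 277 and 265, the last group just below the lowest WT library, as were 33.2% of all genes. On day 2 DNMT1-AID, at 69.0, 68.9 and 58.2 CPM, lay above WT at 53.6, 50.8 and 48.7, as did 15.7% of all genes, without a call (0.36 ± 0.139, adjusted p 0.149). UHRF1-AID was below DNMT1-AID on that day by a log2 difference of -0.56 ± 0.139 (adjusted p 0.00391).

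*ADAR*, the editing enzyme, was, like *MAVS*, lower in all 3 degron lines on day 8. The WT libraries were at 534, 613 and 533 CPM, those of UHRF1-AID at 485, 426 and 454, those of DNMT1-AID at 501, 411 and 413 and those of UHRF1-AID/DNMT1-AID at 361, 360.3 and 334.5. All degron libraries were below all WT libraries, as were 26.1% (UHRF1-AID), 27.6% (DNMT1-AID) and 33.7% (UHRF1-AID/DNMT1-AID) of all genes. Those of UHRF1-AID/DNMT1-AID were below the rest, as were 22.9% of all genes against UHRF1-AID and 24.5% against DNMT1-AID. The log2 fold changes were -0.30 ± 0.1 (adjusted p 0.0144), -0.34 ± 0.1 (0.00529) and -0.67 ± 0.101 (4.79e-07). UHRF1-AID/DNMT1-AID was also below UHRF1-AID (-0.37 ± 0.1, adjusted p 0.00316) and DNMT1-AID (-0.33 ± 0.1, 0.00773).

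On day 6 *ADAR* was called in no line. WT had 741, 721 and 723 CPM, UHRF1-AID 783, 726 and 709, DNMT1-AID 785, 783 and 707, and UHRF1-AID/DNMT1-AID 708.5, 653 and 675 (-0.10 ± 0.1, adjusted p 0.445), the last below all WT libraries, as were 33.2% of all genes. On day 2 it was called lower in UHRF1-AID (144, 147 and 193 CPM, -0.27 ± 0.101, adjusted p 0.047) and UHRF1-AID/DNMT1-AID (185, 154 and 134 CPM, -0.30 ± 0.102, 0.0274), against 205, 182 and 195 in WT, and both groups overlapped WT. The first of these calls was lost under 5 settings beside the 2-fold limit and without WT replicate 1 (-0.23) or 3 (-0.27) or UHRF1-AID replicate 1 (-0.19) or 2 (-0.21). The second was lost without WT replicate 1 (-0.26) or 3 (-0.29) or UHRF1-AID/DNMT1-AID replicate 2 (-0.28) or 3 (-0.19). On day 8 the call in UHRF1-AID was lost without WT replicate 2 (-0.23) or UHRF1-AID replicate 2 (-0.25).

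In WT itself 7 of the 8 mRNAs rose more than 2-fold between day 2 and day 6 (of all genes, 35.7% were called up and 32.1% down, and 18.6% and 8.25% past 2-fold). *MAVS* went from 46.6 ± 5.56 to 221 ± 8.20 CPM (SD, n = 3), a log2 fold change of 2.24 ± 0.129. *ADAR* went from 194 ± 11.2 to 728 ± 11.1 (1.91 ± 0.104), *IFIH1* from 17.4 ± 2.46 to 93.5 ± 2.31 (2.42 ± 0.217) and *DHX58* from 1.31 ± 0.131 to 6.85 ± 1.21 (2.39 ± 0.221). *RIGI* (1.70 ± 0.178) and *TLR3* (1.28 ± 0.179) rose less. *ZBP1* stayed at no read. The WT libraries of both days did not overlap in any of the 7 genes (of all genes, 40.6% were higher and 36% lower without overlap), and the largest adjusted p was 9.72e-08.

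From day 6 to day 8 in WT, 0 of the 8 were called up and 3 down (17.6% and 17% of all genes): *MAVS* (-0.65 ± 0.122, adjusted p 0.000117), *EIF2AK2* (-0.66 ± 0.133, 0.000317) and *ADAR* (-0.38 ± 0.1, 0.00347). The call of *ADAR* was lost with the correction for GC content and length (-0.03). Fitted on those groups alone, *RIGI* (-0.24, adjusted p 0.000405) and *IFIH1* (-0.34, 1.94e-06) were called lower too. From day 2 to day 8 the same 7 genes as on day 6 were up (30.1% of all genes up, 29.7% down), with log2 fold changes from 1.35 ± 0.179 in *TLR3* to 2.25 ± 0.225 in *DHX58*.

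In all 4 lines the mean levels of those 7 genes on day 8 exceeded those of day 2, by different amounts. From day 2 to day 8 the mean CPM of *IFIH1* grew 4.21-fold in WT, 6.63-fold in UHRF1-AID, 4.05-fold in DNMT1-AID and 11.1-fold in UHRF1-AID/DNMT1-AID. That of *MAVS* grew 3.01-fold, 3.92-fold, 2.30-fold and 1.91-fold in the same order. Tested as an interaction of line and day, 4 of the 8 rose more and 2 less than in WT in UHRF1-AID/DNMT1-AID (16.1% and 22.6% of all genes), 1 more and 0 less in UHRF1-AID (10.7% and 7.09%), and 1 more and 1 less in DNMT1-AID (7.05% and 9.28%). Libraries of the same number in UHRF1-AID deviated together across days, and with the replicate number within each line as a block *RIGI* joined *DHX58* in UHRF1-AID (0.48 ± 0.174, adjusted p 0.0496), giving 2 more rather than 1.

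Compared with each other, the single lines gave no call from day 6 on: 0 of the 8 differed on day 6 (5.52% of all genes up and 5.1% down in UHRF1-AID against DNMT1-AID) and 0 on day 8 (10% and 8.24%), where the 95% interval of *MAVS* ran from -0.25 to 0.24 and that of *ADAR* from -0.16 to 0.24. On day 2, UHRF1-AID had 0 higher and 5 lower than DNMT1-AID (7.21% and 12.7%): *RIGI*, *IFIH1*, *MAVS*, *ADAR* and *EIF2AK2*. UHRF1-AID/DNMT1-AID against UHRF1-AID had 1 higher and 0 lower on day 2 (12.1% and 5.6%), 4 and 1 on day 6 (5.41% and 5.39%) and 2 and 2 on day 8 (20.4% and 23.5%). Against DNMT1-AID it had 0 and 4 on day 2 (6.1% and 4.72%), 2 and 1 on day 6 (10.1% and 13%) and 4 and 2 on day 8 (22.2% and 24%). On both later days *DHX58* and *ZBP1* were among the higher genes and *MAVS* among the lower in each of these comparisons, *ZBP1* with the reserve given above. Both *ZBP1* calls of day 6 were lost in DESeq2. That against DNMT1-AID was also lost without DNMT1-AID replicate 3 or UHRF1-AID/DNMT1-AID replicate 1.

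Several of these calls were lost with 1 library left out. That also leaves fewer libraries for the test, so a lost call need not mean that it rested on that library. For *DHX58* on day 6 the difference from UHRF1-AID was not called without replicate 1 (0.42) or 3 (0.46) of UHRF1-AID or replicate 1 (0.43) or 2 (0.41) of UHRF1-AID/DNMT1-AID, and that from DNMT1-AID not without DNMT1-AID replicate 2 (0.39) or UHRF1-AID/DNMT1-AID replicate 1 (0.38) or 2 (0.37). The *MAVS* difference from UHRF1-AID was lost on day 6 without replicate 1 (-0.38) or 3 (-0.42) of UHRF1-AID or replicate 1 (-0.42) or 2 (-0.40) of UHRF1-AID/DNMT1-AID, and on day 8 without UHRF1-AID replicate 1 (-0.32). On day 8 the *RIGI* difference from DNMT1-AID was lost without DNMT1-AID replicate 3 (0.42) or UHRF1-AID/DNMT1-AID replicate 1 (0.45) or 2 (0.44), and the *ADAR* difference without DNMT1-AID replicate 1 (-0.23). On day 2 the *RIGI* difference between UHRF1-AID/DNMT1-AID and DNMT1-AID was lost without DNMT1-AID replicate 1 (-0.47) or UHRF1-AID/DNMT1-AID replicate 3 (-0.36), and with only those groups fitted it was lost (-0.61, adjusted p 0.314) together with that of *IFIH1* (-1.02, 0.257) and that of *EIF2AK2* (-0.60, 0.292).

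On day 6 the *RIGI* difference of UHRF1-AID/DNMT1-AID from UHRF1-AID (0.50 ± 0.166, adjusted p 0.0494) was lost without replicate 1 (0.53) or 3 (0.37) of UHRF1-AID or replicate 1 (0.41) or 2 (0.48) of UHRF1-AID/DNMT1-AID. It was also lost with library size only (adjusted p 0.0605), no filter (0.0719), all genes with a symbol (0.058) and those groups alone (0.052). The *TLR3* difference (0.54 ± 0.166, adjusted p 0.0303) was lost without UHRF1-AID replicate 3 (0.39) or UHRF1-AID/DNMT1-AID replicate 1 (0.45) or 2 (0.48) and with those groups alone (0.57, 0.0727). The *TLR3* difference from DNMT1-AID on day 8 (0.49 ± 0.17, 0.0187) was lost without DNMT1-AID replicate 2 (0.45) or 3 (0.45) or UHRF1-AID/DNMT1-AID replicate 1 (0.32). On day 2 the *ADAR* difference from DNMT1-AID (-0.38 ± 0.102, 0.0112) was lost without DNMT1-AID replicate 2 (-0.36) or UHRF1-AID/DNMT1-AID replicate 3 (-0.28).

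Between the single lines on day 2, the *RIGI* difference (-0.61 ± 0.178, adjusted p 0.0146) was lost without UHRF1-AID replicate 1 (-0.49) or DNMT1-AID replicate 1 (-0.46). That of *IFIH1* (-0.63 ± 0.219, 0.0408) was lost without replicate 1 (-0.54) or 2 (-0.59) of UHRF1-AID or replicate 1 (-0.51) or 2 (-0.66) of DNMT1-AID, and that of *ADAR* (-0.35 ± 0.101, 0.0113) without UHRF1-AID replicate 1 (-0.28) or 2 (-0.29). With library size only all 3 were lost, that of *IFIH1* also with no filter (-0.63, adjusted p 0.0577) and all genes with a symbol (-0.61, 0.058), and that of *ADAR* with those groups alone (-0.30, 0.113). *MAVS* (-0.77 ± 0.13, 4.76e-05) and *EIF2AK2* kept their call in every setting except the 2-fold limit.

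Genes around the sensors were described by lists, to be read against the 35.7% of all genes called up and the 32.8% called down in UHRF1-AID/DNMT1-AID on day 8. Of 20 cofactors and signalling genes of the RIG-I-like receptors, 5 were called up and 7 down in UHRF1-AID/DNMT1-AID on day 8, with a median log2 fold change of 0.02 beside 0.03 over all genes. *IRF7*, a transcription factor of interferon genes, rose from 127 to 629 CPM (2.31 ± 0.145) and *IRF3*, the factor phosphorylated below MAVS, from 66.1 to 109 (0.72 ± 0.0694), as did *TRADD* (0.95 ± 0.133) and *ITCH*, a ubiquitin ligase that targets MAVS (0.52 ± 0.0779). *TRIM25*, a ubiquitin ligase for RIG-I, fell from 178 to 92.1 CPM (-0.95 ± 0.0918) and *RNF125*, which marks RIG-I for degradation, from 16.2 to 4.29 (-1.93 ± 0.225).

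Among 7 partners of TLR3 and ZBP1, 4 were up and 1 down, with a median of 0.34. *UNC93B1*, which brings TLR3 to endosomes, rose from 138.5 to 278 CPM (1.00 ± 0.0728) and *TICAM1*, the TLR3 adaptor, from 44.4 to 83.2 (0.91 ± 0.121). *RIPK3*, the kinase to which ZBP1 binds, had 2 reads over the WT libraries of day 8 (0.03 CPM) and 267 over those of UHRF1-AID/DNMT1-AID (3.95 ± 0.474 CPM), with 112 reads in UHRF1-AID and 10 in DNMT1-AID. *CASP8* rose by 0.34 ± 0.0847 and *FADD* fell from 41.1 to 29.3 CPM (-0.49 ± 0.0818), while *RIPK1* was at -0.02 ± 0.0697 (adjusted p 0.773).

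Of 13 tested PKR partners and other double-stranded RNA proteins, 3 were up and 6 down, with a median of -0.16. The helicase *DHX9*, which unwinds such duplexes, fell from 236 to 116 CPM (-1.03 ± 0.0728), *PPP1R15B*, which guides the removal of the phosphate PKR adds to eIF2α, from 112 to 59.5 (-0.92 ± 0.0803), and *EIF2S1*, eIF2α itself, from 123 to 76.4 (-0.69 ± 0.0922). *PPP1R15A*, the stress-induced counterpart of *PPP1R15B*, rose from 36.03 to 68.4 CPM (0.92 ± 0.112) and *DNAJC3*, an inhibitor of PKR, from 90.0 to 111 (0.30 ± 0.0911). *ADARB2* was not tested.

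The enzymes OAS1, OAS2 and OAS3 bind double-stranded RNA and make a second messenger of the antiviral response, which the related OASL does not make. *OAS2* went from 1.16 to 109 CPM (6.53 ± 0.369), *OASL* from 62.3 to 273 (2.13 ± 0.222) and *OAS1* from 113 to 269.9 (1.25 ± 0.309), while *OAS3* (0.16 ± 0.184) was not called. Of 17 tested interferon ligands and interferon-induced genes 15 were up and 0 down, with a median of 2.32, among them *MX1* from 4.79 to 827 CPM, *IFI27* from 174 to 2691, *IFNL1* from 0.442 to 10.5 and *IFI44L* from 0.904 to 19.4. *STAT2*, a transcription factor of the interferon response, was not called (-0.15 ± 0.114). In that comparison 4 of 5 tested leukocyte markers were called up and 1 down (median 4.49). Of 4 tested stromal and endothelial markers 3 were called up and 0 down (median 1.53). The summed leukocyte level was 18.3 to 26 CPM against 26.9 to 37.8 in WT, and the stromal and endothelial level 36.6 to 49.1 against 20.2 to 24.2.

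Between day 2 and day 6 in WT, 35.7% of all genes were called up and 32.1% down. *OAS3* rose from 65.2 to 720.1 CPM (3.47 ± 0.205), and the interferon list had 14 of 17 up and 0 down, with a median of 2.6, among them *STAT2* (1.73 ± 0.118), beside 0.07 over all genes. Of the cofactors and signalling genes 10 were up and 3 down (median 0.29), of the TLR3 and ZBP1 partners 5 and 1 (0.38), and of the PKR partners and other double-stranded RNA proteins 8 and 4 (0.71). *DDX60*, a helicase that aids RIG-I, rose from 17.9 to 124 CPM and *ADARB1*, the second editing enzyme, from 5.80 to 16.3.

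**Figure D4:**
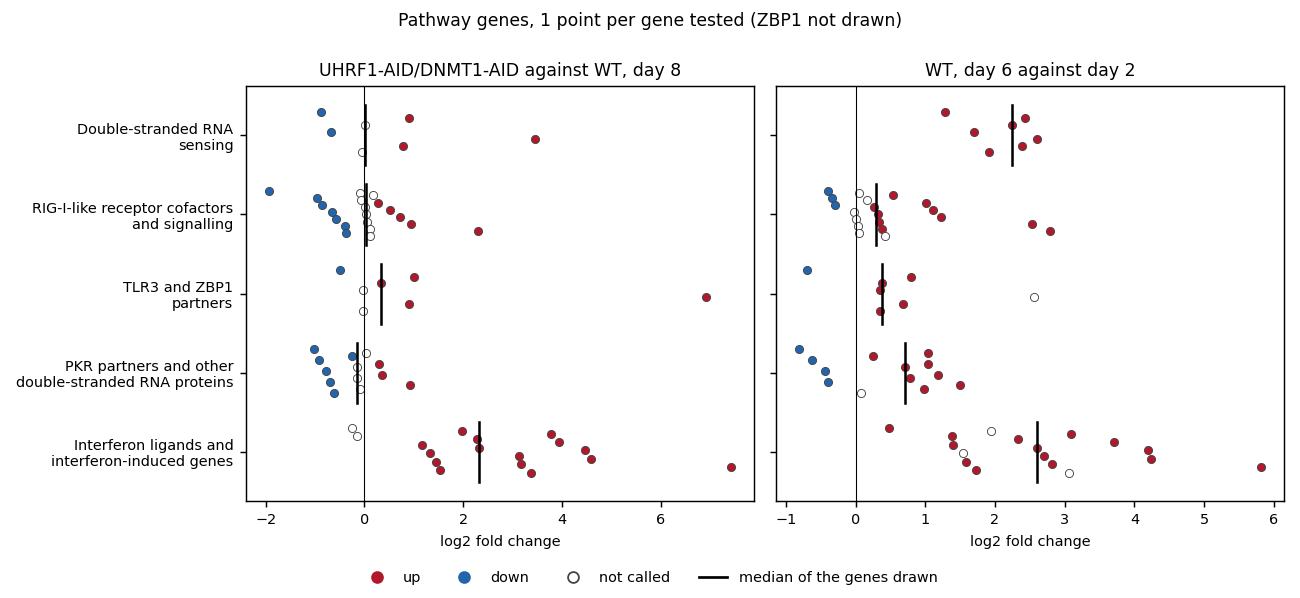
Log2 fold change of each gene tested in 5 lists (1 point per gene, bars at the median of the genes drawn) in UHRF1-AID/DNMT1-AID against WT on day 8 and in WT between day 2 and day 6; *ZBP1* is not drawn. The sensing genes spread to both sides of 0 in the first comparison and lie between 1.28 and 2.6 in the second.

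Over the 12 group means of log2 CPM, which share lines, days and libraries, the genes of most similar pattern among 11673 with a mean of at least 5 CPM differed between members. For *RIGI* they were the overlapping ENSG00000288684 (Pearson's r 1.00), *EPSTI1* (0.997) and *IFIH1* (0.995), and for *IFIH1* they were *DTX3L* (0.995), *RIGI* (0.995) and *HERC5* (0.994). *DHX58* was followed by *BST2* (0.991), *OAS2* (0.989) and *GAL3ST1* (0.989). The nearest to *MAVS* were *TRRAP* (0.997), *HUWE1* (0.996) and *RBM28* (0.995), and to *ADAR* *EIF4G3* (0.995), *BPTF* (0.995) and *RAD50* (0.994). *EIF2AK2* lay closest to *AP1G2* (0.996), *ARHGAP21* (0.994) and *TRIM14* (0.992), *TLR3* to *USP43* (0.976), *CEACAM19* (0.975) and *GALNT6* (0.971), and *ZBP1* to *DHRS2* (0.958), *DNAJC1* (0.945) and *SCARB2* (0.932).

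Between members, as a description over the 12 group means, which share the rise after day 2, r was 0.995 between *RIGI* and *IFIH1*, 0.979 between *MAVS* and *ADAR*, 0.977 between *ADAR* and *EIF2AK2*, 0.966 between *IFIH1* and *EIF2AK2* and 0.562 between *DHX58* and *MAVS*. Over the 9 log2 differences from WT, which share the WT libraries of a day, the same pairs in that order were at 0.94, 0.696, 0.242, 0.573 and -0.36. Levels of *DHX58* ordered the groups as UHRF1-AID/DNMT1-AID on day 8 and then day 6, which overlapped, then the 4 single-line groups of days 8 and 6, which overlapped in sequence, then WT of days 6 and 8 with the 3 degron groups of day 2, each overlapping the next, and last WT of day 2, apart from all. *MAVS* ran from 221 CPM in WT on day 6 to 25.6 in UHRF1-AID on day 2. *ADAR* ran from 758 in DNMT1-AID on day 6 to 158 in UHRF1-AID/DNMT1-AID on day 2, *EIF2AK2* from 309 in WT on day 6 to 42.9 in UHRF1-AID/DNMT1-AID on day 2, and *TLR3* from 18.9 to 3.96 between days 6 and 2 of UHRF1-AID/DNMT1-AID. *RIGI* spanned 5.62-fold and *IFIH1* 13.5-fold, both between days 2 and 6 of UHRF1-AID/DNMT1-AID, against 52.5-fold for *DHX58*.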

How the data were processed

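Poly(A) RNA libraries (NEBNext Ultra kit) of 36 samples were grouped by line and day from the sample labels. The authors aligned reads with STAR to GRCh38 (hg38) and counted them per gene with featureCounts, and the deposited values are raw counts, 1 file per library. For these gene counts the annotation release, the strand setting and the treatment of reads with several matches are not given in the sources used here. The paper states a non-stranded mode for its separate counting of transposable elements. The study's reporting summary speaks of several clones per group for its AID lines in general, and the labels name no clone.

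Of 60648 identifiers, 186 were not paired with a symbol by the GENCODE v44 annotation. Protein-coding genes, which held 90.2% to 92.8% of counts, were filtered with filterByExpr (minimum count 10), scaled by TMM and fitted in edgeR 4.0.16 (R 4.3.3) by robust quasi-likelihood over all 36 libraries, with 24 residual degrees of freedom. Benjamini-Hochberg adjustment ran over the genes of a comparison, and an adjusted p under 0.05 was a call. The script was tested on simulated data. The 24 comparisons were 9 of a degron line with WT of its day, 3 between days in WT, 9 between degron lines and 3 of the change from day 2 to day 8 beyond that in WT. Fold changes are on a log2 scale with a standard error. Levels of *ZBP1* were set against 3 reads over the WT group, a limit that covers counting error in WT only.

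Named were the 8 members, *UHRF1* and *DNMT1*, the 3 genes nearest in pattern to each member and, from each list, at most 4 genes of smallest p in the direction of the list's median and 2 in the other. *IFNB1* and *ADARB2* of the lists were not tested. Some genes that the rule would name, and 1 list, are not reported here. The members and lists were chosen with earlier results of these data known. Alternatives were DESeq2 1.42.0, median-of-ratios size factors, library size only, no filter, all genes with a symbol, offsets for GC content and length, the compared groups alone, a replicate block, a 2-fold limit and leaving out each library. Same-numbered libraries did not deviate together in any of the compared pairs of groups (correlations of deviations not all over 0.1). Within UHRF1-AID and within DNMT1-AID they did across days (0.119 to 0.383), so a block within each line was added after the data were seen. A comparison of the receptors' protein sequences was planned and not made, as no protein table was used here.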

Additional observations from a re-analysis of the deposited data

Results flagged for a closer look

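In 9 results the change from day 2 to day 8 in a degron line differed from that in WT by a test of the interaction itself in edgeR. For *DHX58* the difference on the log2 scale was 1.19 ± 0.301 (SE; UHRF1-AID, adjusted p 0.00513), 1.12 ± 0.305 (DNMT1-AID, 0.011) and 1.46 ± 0.305 (UHRF1-AID/DNMT1-AID, 0.000261). The value in DNMT1-AID fell under the threshold with the correction for GC content and length (0.80, adjusted p 0.0574).

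In UHRF1-AID/DNMT1-AID *IFIH1* (1.38 ± 0.305, adjusted p 0.000691), *RIGI* (0.85 ± 0.248, 0.0074) and *TLR3* (0.74 ± 0.264, 0.025) rose more than in WT, and *MAVS* (-0.66 ± 0.178, 0.00343) and *ADAR* (-0.37 ± 0.143, 0.0363) rose less. The *TLR3* call was lost without WT replicate 2 of day 2 (0.67), UHRF1-AID/DNMT1-AID replicate 3 of day 2 (0.63), WT replicate 3 of day 8 (0.69) or UHRF1-AID/DNMT1-AID replicate 1 of day 8 (0.58). The *ADAR* call was lost without WT replicate 2 (-0.33) or 3 (-0.37) of day 2, UHRF1-AID/DNMT1-AID replicate 1 of day 2 (-0.24), WT replicate 2 of day 8 (-0.30) or UHRF1-AID/DNMT1-AID replicate 3 of day 8 (-0.34), in DESeq2 (-0.32, adjusted p 0.0663) and with median-of-ratios factors (-0.32, 0.0745).

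In DNMT1-AID *ADAR* rose less than in WT (-0.43 ± 0.142, adjusted p 0.036). This call was lost without WT replicate 2 (-0.38) or 3 (-0.42) or DNMT1-AID replicate 1 (-0.39) or 2 (-0.40) of day 2, and without WT replicate 2 (-0.36) or DNMT1-AID replicate 2 (-0.37) or 3 (-0.37) of day 8, and with all genes with a symbol (-0.41, adjusted p 0.0503). Groups of 3 libraries were not searched for single values that stand apart.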

How the results depend on the processing

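The tally over settings took in 127 fold changes of the members, of which 87 were called. These 127 are not all fold changes of the members. Between degron lines and in the interactions only called values were taken in, so 87 of 127 is not a rate of calls. The 87 include calls of *ZBP1*, which do not stand as support. Of the 87, 53 kept their call in every setting except the 2-fold limit, which was applied to counts alone, and 0 called values changed sign. Depth limits *ZBP1* most, with 0 to 78 reads per library. Library size in place of TMM moved the median of all genes by -0.04 to 0.19 in the 9 comparisons with WT, by more than 0.1 in 4 of them. The causes were not tested.

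Counts of members moved as follows. A 2-fold limit left 0 of the lower members in every comparison except UHRF1-AID/DNMT1-AID against DNMT1-AID on day 2, where 1 was left; of the higher members it left 2 in UHRF1-AID/DNMT1-AID on days 6 and 8, in UHRF1-AID on day 8 and in the UHRF1-AID/DNMT1-AID interaction, 1 in DNMT1-AID on day 8 and in UHRF1-AID/DNMT1-AID against each single line on days 6 and 8, and 0 against UHRF1-AID on day 2. With the compared groups alone, UHRF1-AID on day 2 had 1 lower, DNMT1-AID 4 higher on day 2 and 4 higher and 1 lower on day 6, WT 5 lower from day 6 to 8, UHRF1-AID/DNMT1-AID 0 higher against UHRF1-AID and 1 lower against DNMT1-AID on day 2 and 5 higher against DNMT1-AID on day 6, and the interactions 2 higher in UHRF1-AID and 3 lower in DNMT1-AID. With GC content and length, 1 was lower in UHRF1-AID on day 6, 4 higher and 2 lower in UHRF1-AID/DNMT1-AID against DNMT1-AID on day 6, 5 higher against UHRF1-AID on day 8, and 0 higher and 2 lower in the DNMT1-AID interaction. That setting also added *TLR3* and *EIF2AK2* to the 4 higher members of UHRF1-AID/DNMT1-AID against WT on day 8. DESeq2 gave 2 higher in DNMT1-AID on day 2 and 1 on day 8, 4 higher in UHRF1-AID/DNMT1-AID against UHRF1-AID on day 8 and 1 lower in its interaction, as median-of-ratios factors did. Library size gave 1 lower in UHRF1-AID on day 2, 2 higher in UHRF1-AID and 1 in DNMT1-AID on day 8, and 2 lower in UHRF1-AID against DNMT1-AID on day 2. No filter and all genes with a symbol each left 1 higher in DNMT1-AID on day 8, and all genes 0 lower in its interaction.

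The replicate block gave 2 higher in DNMT1-AID on day 2, adding *RIGI*, and changed no other count by more than 1.5 times; the libraries share only a number there. The block within each line gave 2 higher in the UHRF1-AID interaction.

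With 1 library left out, counts ran from 1 to 3 lower in UHRF1-AID and 1 to 4 in UHRF1-AID/DNMT1-AID on day 2. On day 8 they ran from 1 to 4 higher and 1 to 3 lower in UHRF1-AID and stood at 1 higher in DNMT1-AID each time. UHRF1-AID against DNMT1-AID on day 2 had 2 to 5 lower. UHRF1-AID/DNMT1-AID against UHRF1-AID had 0 to 1 lower on day 2, 1 to 4 higher and 0 to 1 lower on day 6, and 2 to 4 higher and 1 to 2 lower on day 8. Against DNMT1-AID it had 2 to 4 lower on day 2, 0 to 4 higher on day 6, and 2 to 5 higher and 1 to 2 lower on day 8. The interactions had 1 to 2 higher in UHRF1-AID, 0 to 1 lower in DNMT1-AID and 1 to 2 lower in UHRF1-AID/DNMT1-AID.

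Some values that were not called changed sign, and not all of them stayed near 0. With GC content and length *RIGI* on day 2 was 0.0549 in UHRF1-AID and 0.0239 in UHRF1-AID/DNMT1-AID, and 0.0419 in WT from day 6 to 8. *ADAR* was -0.0695 in UHRF1-AID on day 6. *EIF2AK2* was 0.0568 in DNMT1-AID and 0.0416 in UHRF1-AID/DNMT1-AID on day 6, and on day 8 it was 0.148 (UHRF1-AID) and 0.226 (DNMT1-AID). *TLR3* was 0.337 in UHRF1-AID/DNMT1-AID on day 8 and was called there (adjusted p 0.0454). With library size *ADAR* was -0.034 in DNMT1-AID on day 2, *EIF2AK2* -0.172 in UHRF1-AID/DNMT1-AID on day 8 and *TLR3* -0.0513 in WT from day 6 to 8. *EIF2AK2* on day 8 was 0.000121 in UHRF1-AID with DESeq2, 0.000109 with median-of-ratios factors, and -0.00203 in UHRF1-AID/DNMT1-AID with no filter. With 1 library left out on day 2, *RIGI* ran from -0.149 to 0.0666 in UHRF1-AID and from -0.225 to 0.19 in UHRF1-AID/DNMT1-AID, *IFIH1* from -0.251 to 0.00393 in UHRF1-AID and *MAVS* from -0.148 to 0.0121 in DNMT1-AID. On day 6 *ADAR* ran from -0.0211 to 0.0511 in UHRF1-AID, and the fitted *ZBP1* value there, which is no bound, from 0 to 4.32. On day 8 *EIF2AK2* ran from -0.0606 to 0.0195 in UHRF1-AID and from -0.0594 to 0.0856 in UHRF1-AID/DNMT1-AID, and *TLR3* from -0.221 to 0.0872 in the latter. *DHX58* ran from -0.243 to 0.0161 in WT from day 6 to 8.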
